A study of Mus musculus with 12 samples.

Results

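Krt9, Krt6a, Krt6b, Krt16 and Krt17 were described in the epidermis of the glabrous hind paw of mice on a regular diet (RD) or a high-fat diet (HFD). These 5 of the 32285 genes in the count files were chosen by symbol, as the keratin of volar skin and the keratins of stressed or appendage epidermis. Epidermal cells of 12 C57BL/6J wild-type mice had been profiled by droplet single-cell RNA-seq of transcript 3′ ends, with 1 library per mouse, in 4 groups of 3 mice, namely males and females on either diet. The RD held 11% fat and the HFD 42%, each fed for 10 weeks from an age of 6 to 8 weeks, so that all mice were 16 to 18 weeks old at harvest. All groups shared the strain, the tissue and the wild-type genotype, and the diets were the only treatment. The male files named Cell Ranger 6.1.0 in their headers and the female files 7.2.0, so sex, counting software and any difference in library handling cannot be told apart. Diet was therefore compared within each sex.

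Keratin filaments are built from pairs of an acidic type I keratin (here Krt9, Krt16 and Krt17) and a basic type II keratin (here Krt6a and Krt6b). Krt9 is the type I keratin of palm and sole, made by suprabasal cells of volar epidermis, and mutations of its human counterpart cause epidermolytic palmoplantar keratoderma. Krt6a, Krt6b, Krt16 and Krt17 are induced in wounded, inflamed or mechanically loaded epidermis, and some are also made constitutively in hair follicles, nail and sole skin. Mutations in their human counterparts cause pachyonychia congenita, whose leading complaint is a painful thickened sole.

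The type I genes lie on the minus strand of chromosome 11 (GRCm38): Krt9 at chr11:100186781-100193246, Krt16 at chr11:100246091-100248902 and Krt17 at chr11:100256217-100261029, each with 8 exons and coding for 743, 469 and 433 residues. The type II genes are neighbours on the minus strand of chromosome 15, Krt6b at chr15:101676023-101680287 and Krt6a at chr15:101689910-101694307, each with 9 exons and coding for 554 and 553 residues. The coding sequences of Krt6a and Krt6b were 97.6% identical and shared 972 of the 1613 windows of 50 bases in the Krt6a coding sequence, so a read of that length from a shared window could not be assigned to 1 of the pair. The 3′ UTRs were 70.9% identical, and 0 of the 451 windows of 50 bases in the last 500 bases of the transcripts were shared. The ends of both coding sequences are shown because they are the coding stretch nearest the 3′ ends that were sequenced. They are the last 42 coding bases, in the last exon, 5′ to 3′ and ending in the stop codon, with the 6 bases that differ in capitals.
Krt6a: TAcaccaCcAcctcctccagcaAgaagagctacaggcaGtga
Krt6b: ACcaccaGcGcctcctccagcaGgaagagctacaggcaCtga
Both sequences were read from the GENCODE vM21 transcripts. Of the last 500 bases, Krt17 shared 43 of 451 windows with Krt14, the main type I keratin of basal cells, and Krt16 shared 6 with Krt14 and 6 with Krt17. Reads from those windows are uncertain between the genes, and how the deposited counts treated them is not given in the sources used here.

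Of 126375 cells kept, 121312 were keratinocytes, defined as cells outside a gate on Langerhans and T cell genes, and 117619 of these were placed in 6 stages by genes other than the members. Cells with Lce1 transcripts were called terminal, cells with cycling genes cycling and cells with Krt79 transcripts Krt79 cells. The rest were basal (Krt14 without Krt10), suprabasal (Krt10 without Krt14) or intermediate (both), and keratinocytes that met no gate were kept as unstaged. Each library held 134449247 to 194673581 UMIs (unique molecular identifiers, which count molecules), with medians of 6577 to 15048 UMIs per kept cell, and any pair of libraries shared 15 to 70 barcodes, at most 0.564% of the smaller library. The stages had 1108 to 25933 cells in males and 1128 to 23511 in females, and a gene's level is given in CPM, which are its UMIs per 1000000 UMIs of the cells of that stage in 1 mouse. In these sums fewer cells that make a gene and less of its RNA per cell cannot be told apart, and 3′ counts were not used to rank the members against each other. Intermediate cells were 6.74% of keratinocytes in male RD and 6.04% in male HFD mice but 2.65% in female RD and 3.13% in female HFD mice, and Krt14 lay within 2-fold of its gate in 8999 of 59868 male and 14321 of 61444 female keratinocytes. The doublet score, the share of simulated doublets among a cell's nearest neighbours, had medians per mouse of 0.57 to 0.73 in intermediate cells, above the 0.13 to 0.33 in basal and 0.20 to 0.33 in suprabasal cells, and its part in the steps into and out of intermediate cells was not tested beyond the removal of the highest scores.

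Among the 6 stages Krt9 was highest in suprabasal cells in both sexes, and few cells carried most of it. Unstaged keratinocytes, described further on, held more Krt9 by mean in both sexes. In suprabasal cells of males its lowest, median and highest levels over 6 mice were 128, 233 and 339 CPM, with a mean of 239 ± 78.1 (SD, n = 6). In females they were 256, 585 and 697 CPM, with a mean of 521 ± 199 (SD, n = 6). In both sexes the suprabasal range overlapped that of Krt79 cells, which reached 171 CPM in male RD 1 and 288 in female RD 2. The other stages were lower and overlapped their neighbours in the order of means. Intermediate cells held 75.0 ± 27.8 CPM in males and 101 ± 53.1 in females (SD, n = 6), and basal cells 34.2 ± 11.6 and 56.0 ± 17.1. Terminal cells held 37.9 ± 34.1 and 66.8 ± 45.8 CPM. Suprabasal cells contained 79.8% of all keratinocyte Krt9 UMIs in males and 61.8% in females (means over mice). After each cell was thinned to 3000 UMIs, 4.64% of male and 9.69% of female suprabasal cells had a Krt9 UMI (7.45% and 15.6% before thinning). The shares in basal cells were 2.50% and 4.99%, beside 1.63% and 4.47% in immune cells, which do not make the gene, and 25 of 15611 male and 44 of 20136 female thinned basal cells had at least 10 Krt9 UMIs. How much of the basal level was free RNA was not tested. Before thinning, the median UMIs of a library's cells were 2843 to 7730 in immune and 8010 to 19048 in suprabasal cells.

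Between neighbouring stages, paired within the 12 mice on the log2(CPM + 1) scale, Krt9 rose from intermediate to suprabasal cells by 2.06 ± 0.74 (SD), higher in 12 of 12 mice, and fell from suprabasal to terminal cells in 12 of 12, a difference of -3.25 ± 1.33. Both had an adjusted p of 8.7e-04 by the two-sided exact sign-flip permutation test, in which the smallest unadjusted p for 12 mice is 0.000488 and the adjustment runs over 25 tests. Krt9 also rose from basal to intermediate cells by 0.88 ± 0.72, higher in 11 of 12 mice (exact adjusted p = 0.005), but with the gate levels doubled this difference was -0.052. From cycling to basal cells it fell in 9 of 12 mice, by 0.44 (exact adjusted p = 0.048), a call lost without any 1 of 9 of the mice, among them each of the 6 females, and without the cells of highest doublet score, where the difference was -0.27 (exact adjusted p = 0.32). Cycling cells had median doublet scores of 0.43 to 0.47 per mouse. From basal to Krt79 cells Krt9 differed by 0.36 ± 2.13, higher in 8 of 12 mice, and did not pass (exact adjusted p = 0.58), with means of -0.60 in males and 1.32 in females whose difference did not pass either (exact permutation adjusted p = 0.34). Leaving out 1 mouse gave 0.18 to 0.78 for this step. Over the 5 members 19 of the 25 steps passed.

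Krt6a, the main inducible type II keratin of the epidermis and of the companion layer of the hair follicle, was highest in Krt79 cells. Krt79 is known as a marker of keratinocytes that line the openings and ducts of skin appendages. Krt6a in Krt79 cells had lowest, median and highest levels of 1518, 1845 and 2552 CPM in males and 1449.6, 1919.8 and 2364 CPM in females, all above every mouse of any other stage. Unstaged keratinocytes held 1469.9 ± 369 and 408 ± 114 CPM. Basal cells came next with 424 ± 42.5 CPM in males and 216 ± 56.5 in females (SD, n = 6), and above cycling cells in all 12 mice. Suprabasal cells held 108 ± 30.1 and 54.6 ± 17.3 CPM. Krt6a rose from basal to Krt79 cells by 2.66 ± 0.64 and from cycling to basal cells by 0.42 ± 0.16 (log2, SD over 12 mice), higher in 12 of 12 mice for both (exact adjusted p = 8.7e-04). It fell from basal to intermediate cells by 0.54 in 11 of 12 mice and from intermediate to suprabasal cells by 1.45 in 12 of 12 (exact adjusted p = 0.0024 and 8.7e-04). The fall from basal to intermediate cells was no longer past the threshold with gate levels doubled, where the difference was -0.091, or without the cells of highest doublet score. A further fall to terminal cells of 0.88 in 10 of 12 mice (exact adjusted p = 0.028) was lost without any 1 of 5 mice and with gate levels halved. The thinned share of terminal cells with a Krt6a UMI, 10.2% and 4.88%, was near that of immune cells, 8.64% and 3.93%.

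Krt6b, its near-identical neighbour, was scarce and uneven. In suprabasal cells it reached 12.6 ± 3.33 CPM in males and 4.94 ± 2.27 in females, and in Krt79 cells 21.5 ± 26.4 and 34.9 ± 23.0 (SD, n = 6). Cycling, basal and terminal cells averaged below 4 CPM in both sexes. The mean of female intermediate cells, 43.9 ± 98.3 CPM, came from female RD 2, at 245 CPM, where 1 cell held 594 of 1254 UMIs and 5 cells held 1245, while the other females held 0.857 to 6.81 CPM. Suprabasal cells held 80.1% of the Krt6b UMIs in males and 49.0% in females. Krt6b rose from basal to Krt79 cells by 2.93 ± 1.57 and fell from suprabasal to terminal cells by 1.81, each in 12 of 12 mice (exact adjusted p = 8.7e-04). The other 3 Krt6b steps did not pass, though each did under some setting. From cycling to basal cells the step was 0.43 (exact adjusted p = 0.37). It was 0.61 with gate levels doubled and 0.71 without the cells of highest doublet score (exact adjusted p = 0.034 and 0.038). From basal to intermediate cells it was 1.15 (exact adjusted p = 0.12), but 1.97 with gate levels halved and 1.40 without male HFD 1 (exact adjusted p = 0.0064 and 0.048). From intermediate to suprabasal cells it was 0.59 (exact adjusted p = 0.38), with means of 1.79 in males and -0.61 in females. That step was 1.08 without female RD 2 (exact adjusted p = 0.024) and -0.41 with gate levels halved. After thinning, a Krt6b UMI was found in 1.69% of male and 0.536% of female suprabasal cells and in 0.810% and 0.103% of immune cells.

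Krt16, the type I partner of the Krt6 keratins, spanned the living layers. Its lowest, median and highest levels in suprabasal cells were 464, 703 and 919 CPM in males and 250.0, 319.5 and 447 CPM in females. Intermediate cells held 526 ± 101 and 425 ± 121 CPM, basal cells 352 ± 35.9 and 287 ± 77.8, and Krt79 cells, the highest by mean in both sexes, 867 ± 226 and 671 ± 248 (SD, n = 6). Neighbours in this order overlapped except that the terminal mice all lay below the cycling mice, at 111 ± 31.5 and 66.1 ± 39.9 CPM. Krt16 fell from suprabasal to terminal cells by 2.57 and rose from basal to Krt79 cells by 1.23 ± 0.47 and from cycling to basal cells by 0.29 ± 0.15, each in 12 of 12 mice (exact adjusted p = 8.7e-04). It rose from basal to intermediate cells by 0.56 ± 0.40 in 11 of 12 mice (exact adjusted p = 0.0031), and by 0.55 with gate levels doubled, where it was no longer past the threshold (exact adjusted p = 0.28).

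The step of Krt16 from intermediate to suprabasal cells averaged 0.02 ± 0.48 over the 12 mice and did not pass (exact adjusted p = 0.87). In males it was 0.40 ± 0.11 and positive in 6 of 6 mice, and in females -0.35 ± 0.40 and positive in 1 of 6. The difference between the sexes, 0.75, passed an exact permutation test of 6 against 6 mice chosen after the data were seen (p = 0.0022, the smallest it can give, and 0.027 adjusted over the 25 steps). Thinned to 3000 UMIs, 50.5% of intermediate and 52.6% of suprabasal male cells had a Krt16 UMI, against 34.3% and 30.4% in females. Before thinning these shares were 73.1%, 70.4%, 53.4% and 46.6%. Without the cells of highest doublet score the step over the 12 mice was -0.18, and the part of the high doublet scores of intermediate cells in the sex difference was not tested. Sex and counting software cannot be told apart here.

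Krt17, a type I keratin of hair follicle and basal appendage cells that is induced on injury, was highest in Krt79 cells. In Krt79 cells its lowest, median and highest levels were 3144, 5125 and 9217 CPM in males and 4213, 5025 and 6239.7 CPM in females, and all 12 mice lay above every mouse of any other stage. Unstaged keratinocytes, described further on, held 4935 ± 1039 and 1142 ± 319.5 CPM. Basal cells held 619 ± 68.6 and 241 ± 49.7 CPM, cycling cells 444 ± 72.7 and 157 ± 26.1, and suprabasal cells 167 ± 29.9 and 63.6 ± 7.58 (SD, n = 6). Although Krt79 cells were few, they contained 35.3% of the Krt17 UMIs in females and 21.0% in males. Krt17 rose from cycling to basal cells by 0.55 ± 0.22 and to Krt79 cells by 3.77 ± 0.80, and fell from basal to intermediate cells by 1.08 and on to suprabasal cells by 0.82, each in 12 of 12 mice (exact adjusted p = 8.7e-04). The last 2 were no longer past the threshold with gate levels doubled, at -1.12 and -0.77. Its difference from suprabasal to terminal cells was -0.38 ± 0.98 and did not pass (exact adjusted p = 0.24), but it passed in opposite directions under other settings, at 0.57 with gate levels halved and -1.34 without the cells of highest doublet score (exact adjusted p = 0.043 and 0.0088). With cells thinned to 3000 UMIs it was -0.60 (exact adjusted p = 0.029). The basal to Krt79 rise was 3.11 ± 0.49 in males and 4.44 ± 0.32 in females, a difference of -1.33 (exact permutation p = 0.0022, adjusted p = 0.027). The female basal mice all held less Krt17 than the male ones, while the Krt79 levels overlapped between the sexes.

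**Figure D1:**
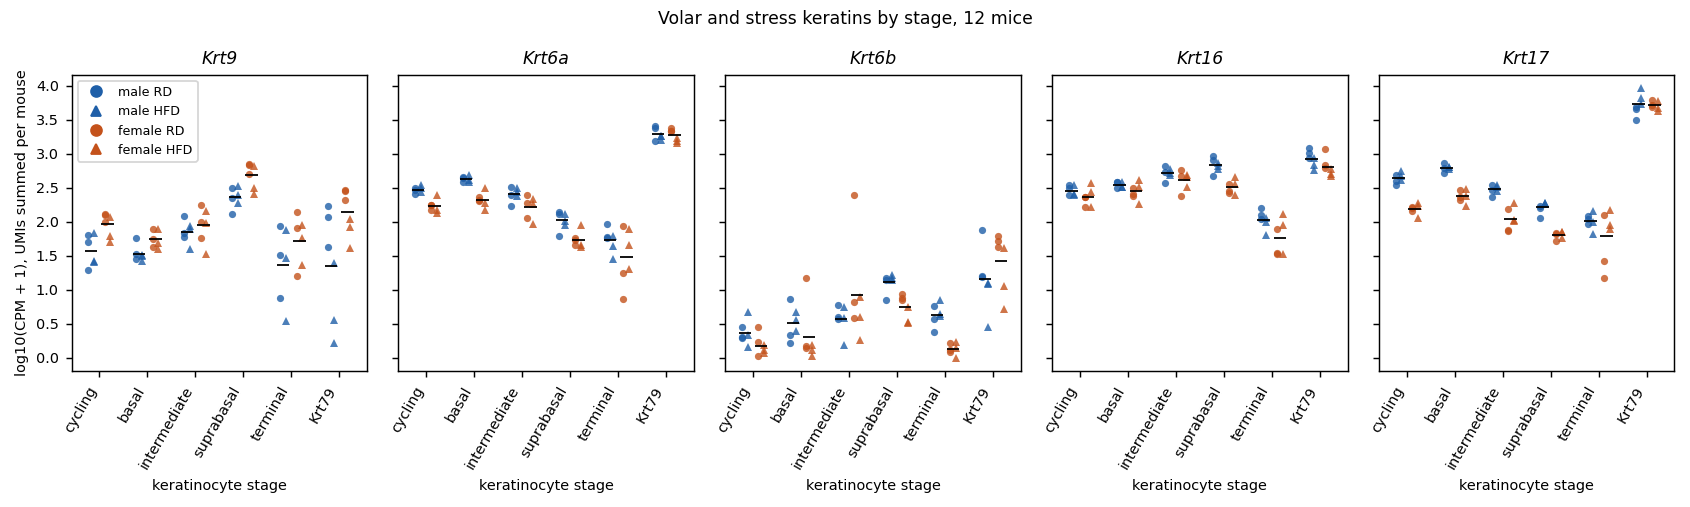
Levels of the 5 members by keratinocyte stage as log10(CPM + 1), with 1 point per mouse (circles RD, triangles HFD, blue male, orange female) and a dash at the mean of each sex. Among the 6 stages Krt9 peaks in suprabasal cells, Krt6a and Krt17 in Krt79 cells above every other stage, Krt16 is lowest in terminal cells, and Krt6b is below 4 CPM by mean in cycling, basal and terminal cells, with single mice as high as 245 CPM in intermediate and 74.5 in Krt79 cells. Unstaged cells are not drawn and held more Krt9 by mean than suprabasal cells in both sexes.

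The UMIs of Krt9 were held by a small class of cells. Cells with at least 10 Krt9 UMIs of 3000 numbered 741 of 58140 male and 1767 of 59354 female thinned keratinocytes, 1.24 ± 0.43% and 2.97 ± 0.90% of cells (SD, n = 6), and held 78.5% and 78.2% of the thinned Krt9 UMIs. In males 78.9% of them were suprabasal and 10.6% unstaged, and in females 52.5% and 40.3%. Unstaged cells carried 26.9% of the Krt9 UMIs of females and 5.57% of those of males, at 2789 ± 613 and 1089 ± 565 CPM. Such cells made up 2.17% and 4.10% of the suprabasal stage and 10.7% and 27.6% of unstaged cells. A class cut from a count is a range, not a cell type, and the count was described in all stages after the data were seen.

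The suprabasal cells rich in Krt9 held more Krt1 and less Krt2 than those with no Krt9 UMI. Krt1, the type II keratin of differentiating epidermis, averaged 27133 CPM in rich and 6059 in Krt9-free suprabasal cells of females, and 26562 and 9415 in males. Krt2, a later suprabasal keratin, averaged 3136 against 15599 CPM in females and 1134 against 14127 in males. Krt10, the gate gene, averaged 14927 against 24598 and 23093 against 35569.5 CPM. The rich cells that met no gate were 693 in females and 77 in males. Their Krt1 averaged 15616 and 12983 CPM in females and males and their Krt2 274 and 86.7. Krt10, at 2377 and 3161 CPM, and Krt14, at 616 and 1445, are kept low in unstaged cells by the gates. Other unstaged cells are not given beside them. Krt10 lay at 0.5 times its gate level or more in 281 of the 693 female (40.5%) and 46 of the 77 male cells (59.7%). Over all rich cells Krt8 and Krt18, keratins of sweat gland and Merkel cells, averaged 0.771 and 0.318 CPM in females and 0.0424 and 0 in males. These values are descriptions, since the class was cut from one of the genes of these cells.

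**Figure D2:**
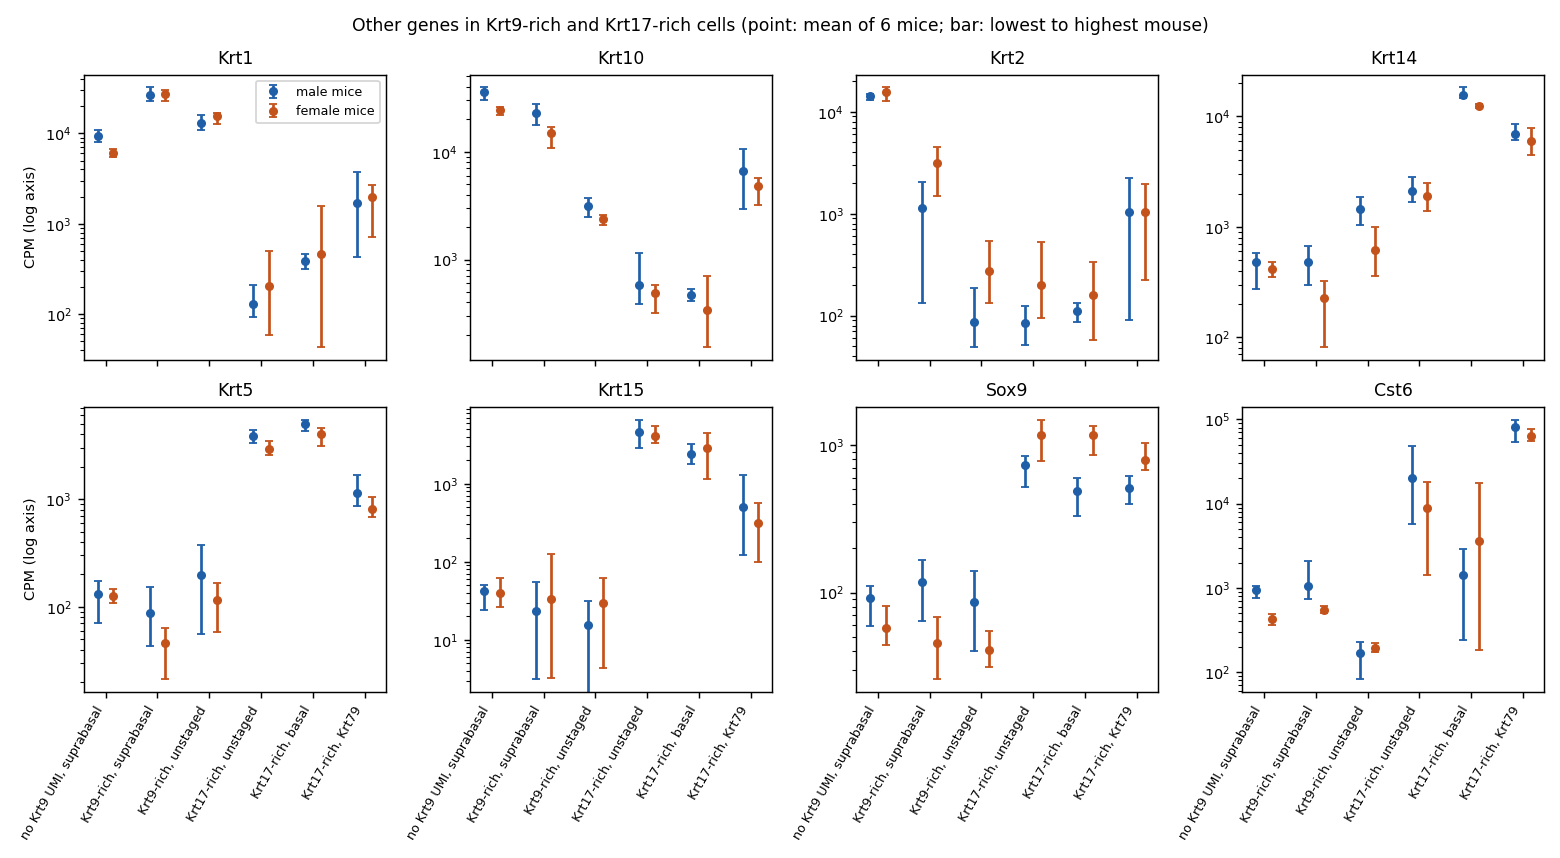
Mean levels (CPM, log axis) of 6 keratins, Sox9 and Cst6 in suprabasal cells without a Krt9 UMI, Krt9-rich cells (suprabasal and unstaged) and Krt17-rich cells (unstaged, basal and Krt79), by sex. Points are means of 6 mice, bars span the lowest to the highest of 6 mice, and the Krt15 bar of male Krt9-rich unstaged cells reaches a mouse at 0. Krt1 is higher and Krt2 lower in the Krt9-rich suprabasal cells than in those without Krt9. In all classes but the Krt79 cells, Krt10 and Krt14 are bounded by the gates.

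Of the 4 stress keratins, Krt17 passed the test of Krt9-rich against Krt9-free suprabasal cells. Its mean level was 61.9 ± 48.7 CPM in suprabasal cells with at least 10 Krt9 UMIs of 3000 and 119 ± 57.4 in those with 0 (SD, n = 12 mice), with Krt9 taken out of the totals. The log2 difference was -1.29 ± 0.97, lower in 10 of 12 mice, -0.78 in males and -1.81 in females, and it passed the exact sign-flip permutation test (p = 0.0034, adjusted p = 0.014 over 4 tests). The rich class held 3 to 50 Krt17 UMIs per mouse after thinning. Krt16 averaged 536 and 472 CPM in the 2 classes, Krt6a 103 and 75.6 and Krt6b 17.7 and 6.53. The higher Krt6b mean rested largely on female RD 1 (84.6 CPM, 43 UMIs) and male HFD 2 (70.1 CPM, 24 UMIs). Krt16, Krt6a and Krt6b did not pass, which does not show that they were alike. Their log2 differences were 0.10 ± 0.57, 0.24 ± 1.10 and 0.27 ± 2.13 (SD, each exact adjusted p = 0.68).

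Krt17-rich cells, again with at least 10 of 3000 UMIs, numbered 1317 in males and 1004 in females and held 51.0% and 65.6% of the thinned Krt17 UMIs. They were 28.8% and 33.7% of Krt79 cells, 28.8% and 10.4% of unstaged cells, and 3.28% and 1.10% of basal cells. Their levels of Krt79 and Krt14 are set by the gates and are not given, and the other genes are a description. In Krt79 cells rich in Krt17, Cst6 (a cysteine protease inhibitor) averaged 62773 CPM in females and 82387 in males. In the 256 female and 219 male unstaged cells rich in Krt17, Krt15 (a keratin of follicle and basal cells) averaged 4118 and 4653, Krt5 2926 and 3828 and Sox9 (a transcription factor of the hair follicle) 1172 and 735. Krt6a was 2732 and 2769.8 CPM in these cells.

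Krt6a-rich cells (763 male, 543 female) were 18.8% and 17.7% of Krt79 cells, 16.4% and 4.85% of unstaged cells and 1.49% and 0.746% of basal cells. Of the Krt6a-rich cells themselves, 27.4% and 36.2% were Krt79 cells, 16.2% and 22.6% unstaged and 30.4% and 27.7% basal. Krt16-rich cells (1093 male, 524 female) were 7.14% and 4.21% of Krt79 cells but 3.16% and 1.08% of suprabasal cells. Of the Krt16-rich cells themselves, 69.9% and 47.8% were suprabasal and 6.99% and 8.95% Krt79 cells. Krt6b-rich cells were 11 and 16. Krt6b was often found with other stress keratins in the same suprabasal cells. Of thinned suprabasal cells with a Krt6b UMI, 349 of 427 male (81.0% as a mean over mice) and 96 of 121 female (78.5%) had a Krt16 UMI, against 52.6% and 30.4% of all suprabasal cells. Of the 427 male cells, 230 (52.0%) had Krt6a, against 12.6% of all, and 147 (33.0%) had Krt17, against 20.6%. The Krt6a and Krt17 shares are given for males only. Among Krt79 cells with Krt6b, 24 of 26 male and 26 of 26 female cells had Krt6a, against 63.6% and 54.7% of all Krt79 cells, but 34.2% and 45.7% (means over mice) had Krt17, against 69.4% and 62.4%. Of suprabasal cells with a Krt17 UMI, 67.6% of male and 49.4% of female cells had Krt16. These shares are descriptions within 1 set of libraries, whose cells differ in depth.

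**Figure D3:**
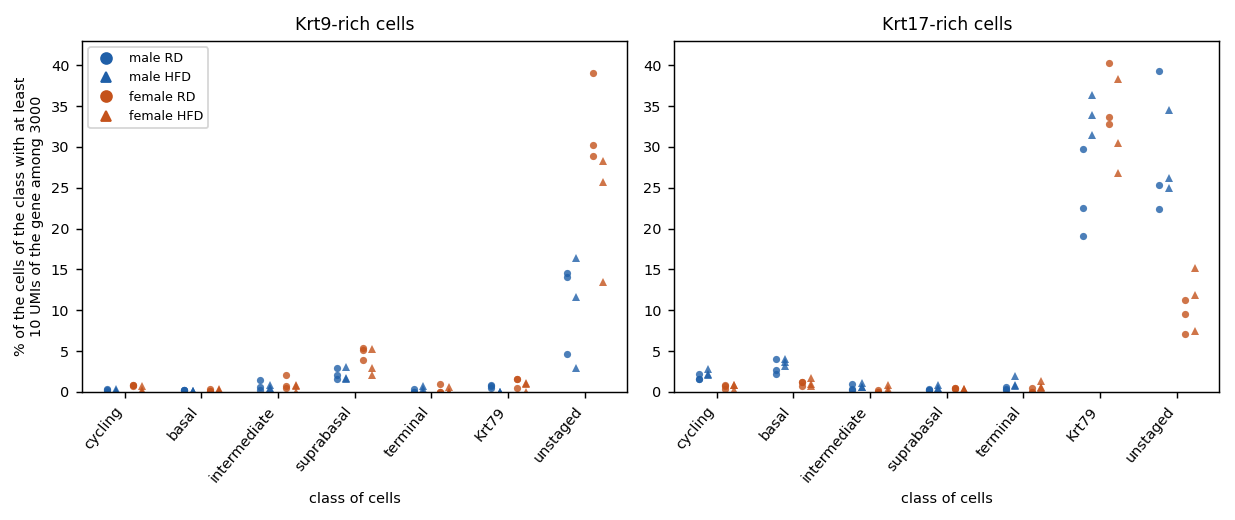
Percent of the thinned cells of each stage that were rich in Krt9 (left) or Krt17 (right), with at least 10 of 3000 UMIs, with 1 point per mouse (circles RD, triangles HFD). Krt9-rich cells are most common among unstaged and then suprabasal cells, and Krt17-rich cells among Krt79 and unstaged cells.

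Genes of the most similar pattern were ranked by the lower of the male and female Pearson correlations of log2(CPM + 1) over 36 points per sex, which are 6 stages of 6 mice and share libraries, among 8028 genes. The closest to Krt9, with their correlations in males and females, were Ttll7, a tubulin glutamylase, at 0.73 and 0.72 and Dmpk, a protein kinase, at 0.73 and 0.65. The closest to Krt6a were Sgcb, a sarcoglycan, at 0.97 and 0.96, Dsc2, a desmocollin, at 0.98 and 0.95 and Sox9, the follicle factor named above, at 0.95 and 0.94, and Krt17 itself correlated with it at 0.96 and 0.89. The closest to Krt6b were Atp6v0d1, a proton pump subunit, at 0.74 and 0.76, Grhl1, a transcription factor, at 0.72 and 0.74 and Spint1, a protease inhibitor, at 0.78 and 0.72. The closest to Krt16 were Sdc1, syndecan-1, at 0.95 and 0.93, Anxa1, annexin A1, at 0.93 and 0.93 and Arf3, a small GTPase, at 0.93 and 0.93. The closest to Krt17 were Lbh at 0.96 and 0.95, Nt5e, an ecto-nucleotidase, at 0.95 and 0.97 and Itgb8, an integrin chain, at 0.95 and 0.95. Over these 6 stages, which leave out unstaged cells, Krt6a, Krt16 and Krt17 had close companions, whereas Krt9 and Krt6b had only moderate ones. How far the low Krt6b counts bounded its correlations was not tested.

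Diet was compared within each sex by edgeR's quasi-likelihood test on UMI sums per mouse, in all keratinocytes and in each stage. Each gene had 3 RD and 3 HFD mice per sex, and p-values measure the spread between these mice. In males 0 of 5 members passed the threshold of 0.05 (Benjamini-Hochberg) in any of the 7 comparisons. The share of all genes tested that passed was 0% in all keratinocytes, 0% in cycling, 0.00805% in basal, 0% in intermediate, 0.023% in suprabasal, 0% in terminal and 0.0342% in Krt79 cells of males. At an unadjusted p under 0.05, 1 male member stood in all keratinocytes, 1 in suprabasal, 1 in terminal and 4 in Krt79 cells, where 9.15%, 10.4%, 15.6% and 6.19% of all genes tested did. It was 0 members in cycling, basal and intermediate cells, where 8.54%, 6.8% and 5.53% of genes did. DESeq2 called 1 male member, Krt17 in Krt79 cells, beside 14 of the 8773 genes fitted there (0.16%).

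In females 1 of 5 members passed, Krt6b in suprabasal cells, where 3.65% of all genes passed. In the other female comparisons 0 members passed (4 tested in terminal cells), against 3.39% of genes in all keratinocytes, 1.48% in cycling, 0.767% in basal, 0.0566% in intermediate, 0.0124% in terminal and 0% in Krt79 cells. At an unadjusted p under 0.05 there were 2 members in all keratinocytes, 1 each in cycling, basal, intermediate and suprabasal cells, 0 in terminal and 4 in Krt79 cells. Of all genes tested, 21.7% in all keratinocytes, 19.5% in cycling, 15.8% in basal, 12.1% in intermediate, 21.8% in suprabasal, 9.1% in terminal and 7.9% in Krt79 cells of females had such an unadjusted p. DESeq2 called Krt6b in suprabasal cells, beside 1011 of 14845 genes fitted (6.81%), and Krt6a in Krt79 cells, beside 5 of 9856 (0.0507%). The number of female genes called was itself unstable: 542 in suprabasal cells fell to 0 without female RD 2 and 603 in all keratinocytes to 2 without female RD 1.

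For the difference of the diet effect between the sexes, 0 of 5 members passed in any of the 7 comparisons, with 1.66% of genes past the threshold in all keratinocytes, 0.0279% in cycling, 0.0467% in basal, 0.0428% in intermediate, 1.57% in suprabasal, 0% in terminal and 0.00998% in Krt79 cells. At an unadjusted p under 0.05 there were 6 of 35 member tests, beside 7.77% to 20.3% of all genes over the 7 comparisons, and DESeq2 called 1 member, Krt6b in suprabasal cells, beside 772 of 15240 genes fitted (5.07%). Within 1 sex, 1 of 69 member tests passed and 17 had an unadjusted p under 0.05, beside 5.53% to 21.8% of all genes over the 14 comparisons.

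Krt9 in suprabasal cells held 313, 223 and 128 CPM in male RD mice and 243, 339 and 189 in male HFD mice. In female RD mice it held 692, 697 and 502 CPM and in female HFD mice 309.8, 256 and 669. The male groups overlapped, and female HFD 3 lay among the female RD mice while the other HFD females were below them. The log2 difference (HFD minus RD) was 0.27 (SE 0.31) in males and -0.65 (SE 0.31) in females, with an edgeR adjusted p of 0.8 and 0.25. Without female HFD 3 the female value was -1.20 with an edgeR adjusted p of 0.037, so that 1 mouse decided the call, and 91 genes passed in that fit. At the other end, leaving out 1 female gave -0.38. Over all keratinocytes the Krt9 difference was 0.28 (SE 0.34) in males and -0.72 (SE 0.25) in females (edgeR adjusted p = 0.85 and 0.15), where the female value was -1.13 without female HFD 3 (edgeR adjusted p = 0.060). With 1 female left out it ranged up to -0.54. The share of Krt9-rich cells was 3.65, 3.97 and 3.09% in female RD and 1.76, 2.00 and 3.34% in female HFD mice, the same 2 HFD mice being low, and 1.80, 1.15 and 0.826% and 1.10, 1.73 and 0.815% in male RD and HFD mice.

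In Krt79 cells Krt9 held 171, 41.1 and 117 CPM in male RD, 0.644, 23.7 and 2.65 in male HFD, 281, 288 and 209 in female RD and 110.2, 40.4 and 82.5 in female HFD mice. The HFD mice all lay below the RD mice in both sexes, but few cells carried the counts: in male RD mice 469, 80 and 230 Krt9 UMIs included 230, 59 and 219 from 1 cell each, and in male HFD mice there were 1, 40 and 7. The differences were -3.67 (SE 0.70) in males and -1.74 (SE 0.29) in females, and neither passed (edgeR adjusted p = 0.2 and 0.23). Without male HFD 2 the male value was -5.80 with an edgeR adjusted p of 0.032, and without the cells of highest doublet score the female value was -0.43.

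Krt6b, the one member past the threshold, held 6.11, 7.70 and 6.57 CPM in suprabasal cells of female RD mice and 4.69, 2.34 and 2.23 in female HFD mice. All 3 HFD females were below all RD females, with means of 6.80 ± 0.820 and 3.09 ± 1.39 CPM (SD, n = 3). It fell by 1.15 on the log2 scale (SE 0.26, edgeR adjusted p = 0.045). The counts were small and gathered in few cells: RD females had 329, 445 and 414 UMIs with 67, 261 and 173 in 1 cell, and HFD females 319, 111 and 114 with 48, 17 and 15. The cell of most UMIs of each of the 5 members was also removed in each mouse, a choice made after the data were seen. The difference was then -0.45 with an edgeR adjusted p of 0.3. With gate levels halved it was -0.12 with an edgeR adjusted p of 0.84. Without any 1 of the 6 females other than HFD 1, the difference was -0.96 to -1.24 and the edgeR adjusted p 0.053 to 0.15. In male suprabasal cells it held 13.7, 6.02 and 13.0 CPM in RD and 14.1, 13.2 and 15.5 in HFD mice, the groups overlapping. The male difference was 0.42 (SE 0.25), with an edgeR adjusted p of 0.59, and ranged from 0.14 without male RD 2 to 0.65 without male RD 1. The difference between the sexes did not pass (edgeR adjusted p = 0.064).

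In Krt79 cells Krt6b held 14.6, 14.9 and 74.5 CPM in male RD, 11.6, 11.3 and 1.89 in male HFD, 52.0, 41.6 and 61.7 in female RD and 10.2, 39.9 and 4.17 in female HFD mice. The male and female HFD mice all lay below their RD groups, where 11.9% and 14.2% of all genes tested did not overlap. Few cells carried the counts: 26 of 1078 male and 26 of 1091 female thinned Krt79 cells had a Krt6b UMI. The differences of -2.12 (SE 0.71) and -1.58 (SE 0.53) did not pass (edgeR adjusted p = 0.62 and 0.56). The male value was -0.93 without male RD 3 and -2.50 without male RD 1, and the female value -1.08 without female HFD 3 and -2.85 without female HFD 2.

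Krt6a in Krt79 cells held 2364, 2149 and 2146 CPM in female RD and 1449.6, 1693 and 1514 in female HFD mice, all HFD values lying below. In males it held 2414, 2552 and 1518 in RD and 1596, 1849 and 1842 in HFD mice, the groups overlapping. The differences were -0.53 (SE 0.09) in females (unadjusted p = 1.3e-04, edgeR adjusted p = 0.23) and -0.25 (SE 0.18) in males (edgeR adjusted p = 0.92). Leaving out 1 male gave -0.12 (without RD 2) to -0.46 (without RD 3), with -0.14 without RD 1. Over all keratinocytes the differences of Krt6a were -0.01 (SE 0.13) in males and -0.07 (SE 0.18) in females.

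Krt16 in suprabasal cells held 801, 464 and 919 CPM in male RD, 599, 739 and 668 in male HFD, 262, 355 and 284 in female RD and 447, 250.0 and 362 in female HFD mice. The groups overlapped in both sexes, with differences of -0.07 (SE 0.21) and 0.20 (SE 0.20), with an edgeR adjusted p of 0.94 and 0.62. In Krt79 cells it held 622, 1154 and 677 in female RD and 476, 501 and 599 in female HFD mice, all HFD values lying below. The difference there of -0.65 (SE 0.21) did not pass (edgeR adjusted p = 0.54) and was -0.33 without female RD 2, nor did that in males of -0.48 (SE 0.16), with an edgeR adjusted p of 0.62.

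Krt17 in Krt79 cells held 4790.2, 3144 and 4472 CPM in male RD and 9217, 5459 and 6622 in male HFD mice, where all HFD values lay above. In females the groups overlapped, with 6239.7, 4857 and 5193 CPM in RD and 6038, 4728 and 4213 in HFD mice. The male difference of 0.83 (SE 0.21) had an unadjusted p of 0.0017 and did not pass (edgeR adjusted p = 0.37). It passed with the replicate number as a block in edgeR, at 0.82 (adjusted p = 0.027), and by DESeq2, at 0.83 (adjusted p = 0.041). The female difference was -0.13 (SE 0.15) and the difference between the sexes did not pass (edgeR adjusted p = 0.41). Beside it, the summed level of the migratory markers in Krt79 cells ranged from 20296 to 30350 CPM in male RD and from 34465 to 48605 in male HFD mice, and from 23310 to 38251 and 23068 to 32624 in female RD and HFD mice, and their part in the Krt17 values was not tested. In suprabasal cells of males Krt17 held 168, 111 and 159 CPM in RD and 188, 184 and 191 in HFD mice, again without overlap (a difference of 0.42, SE 0.14, edgeR adjusted p = 0.34). Leaving out 1 male gave 0.25 to 0.54 there. In Krt79 cells 3 of 5 members in males and 4 of 5 in females had groups that did not overlap, where 11.9% and 14.2% of all genes tested did. In suprabasal cells it was 1 of 5 in each sex, where 18.1% of male and 26.5% of female comparisons of genes did not overlap. The members share cells and libraries and are not independent of each other.

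Over all keratinocytes Krt6b held 7.54, 14.4 and 4.47 CPM in female RD and 3.72, 3.09 and 1.23 in female HFD mice, without overlap, and the difference of -1.78 (SE 0.47) did not pass (edgeR adjusted p = 0.076). It was the 1 of 5 members without overlap there, where 27.2% of all genes tested did not overlap. Krt17 held 384, 316 and 443 CPM in male RD and 462, 413 and 510.4 in male HFD mice, the groups overlapping. Its difference was 0.34 (SE 0.13) in males and -0.05 (SE 0.14) in females (edgeR adjusted p = 0.48 and 0.87). The male value was 0.21 to 0.44 with 1 male left out. For Krt16 the differences were -0.04 (SE 0.20) in males and 0.14 (SE 0.22) in females, the latter 0.0053 to 0.38 with 1 female left out. In female intermediate and basal cells Krt6b differed by -4.87 (SE 1.41) and -3.92 (SE 1.30), with 594 of 1254 UMIs of female RD 2 in 1 intermediate cell and 303 of 414 UMIs of female RD 1 in 1 basal cell, and did not pass (edgeR adjusted p = 0.21 and 0.2). In female cycling cells Krt9 differed by -0.66 (SE 0.27), with an edgeR adjusted p of 0.22.

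**Figure D4:**
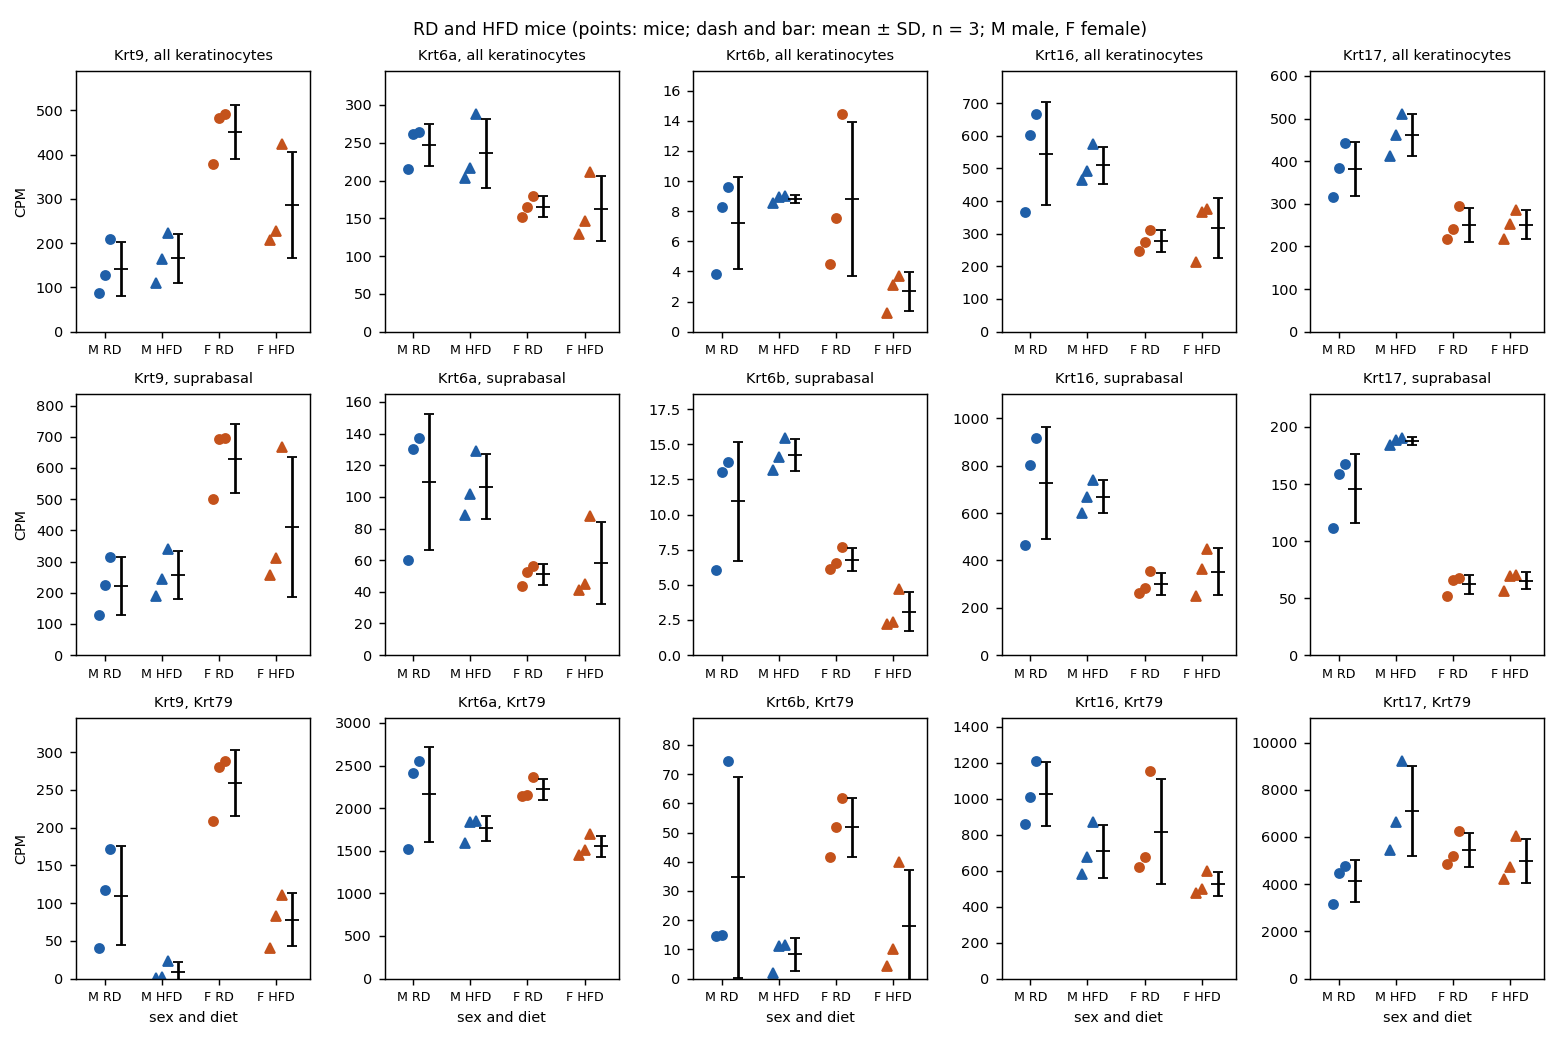
Levels of the 5 members (CPM, linear axes from 0) in suprabasal cells, Krt79 cells and all keratinocytes for each of the 12 mice, by sex and diet, with group means and SD as bars (lower bars are clipped at 0 where the SD exceeds the mean). Krt6b in female suprabasal cells is lower in all 3 HFD mice, and in Krt79 cells Krt9 and Krt6b lie lower in HFD mice of both sexes, where neither gene passed the threshold.

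The genes around the members were taken from 6 lists: other epidermal keratins, palmoplantar keratoderma genes, genes of activated epidermis, targets of Nfe2l2 (the regulator of the oxidative stress response), AP-1 and other keratin regulators, and partners of keratin filaments. In female suprabasal cells 542 of 14845 genes (3.65%) passed, 284 higher and 258 lower with HFD, and since 0 passed without female RD 2, the list calls there all depend on that mouse. By the full set of mice 1 of 17 tested keratins rose and none fell, namely Krt15 with 27.7, 25.7 and 23.6 CPM in RD and 53.4, 43.8 and 60.2 in HFD mice, a log2 difference of 0.99 (edgeR adjusted p = 0.012). Of 30 keratoderma genes 2 fell, Krt6b and Gjb2 (connexin 26), the latter with 191, 202 and 196 CPM in RD and 156, 118 and 134 in HFD mice. Gjb2 fell by 0.56 (edgeR adjusted p = 0.032), and every HFD female was below every RD female. Of 33 activation genes 1 rose, Plaur (the urokinase receptor) by 0.87. Of 18 Nfe2l2 targets 2 fell, Nfe2l2 itself by 0.41 and Slc7a11 (a cystine transporter) by 0.44 (edgeR adjusted p = 0.019 and 0.037). Of 24 filament partners 2 fell, Dsc1 (a desmocollin) by 0.44 and Plec (plectin) by 0.30, and 0 of 23 regulators passed, with 5 at an unadjusted p under 0.05. The median difference of the keratoderma genes, a list that includes the member Krt6b, was -0.18, beside 0.0064 over all genes tested, and was not tested as a set. Over all female keratinocytes, where 3.39% of all genes passed, 1 of 18 keratins rose, Krt8, which Merkel and gland cells make, by 0.64, and 1 of 30 keratoderma genes (Gjb2), 1 of 34 activation genes (Sprr2d), 3 of 18 Nfe2l2 targets and 1 of 24 filament partners (Dsc1) fell. Beside these, suprabasal cells were 39.5, 39.6 and 42.4% of keratinocytes in female RD and 36.5, 34.3 and 36.5% in female HFD mice, without overlap. The summed suprabasal markers ranged from 21819 to 22906 CPM in female RD and from 17078 to 21227 in female HFD mice, and their part in these calls was not tested. Langerhans and T cell markers summed to 16.7 to 25.4 CPM over all keratinocytes of a mouse.

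In all keratinocytes and suprabasal cells of males 0 genes of these 6 lists passed in either direction. At an unadjusted p under 0.05 stood, in male suprabasal cells, 4 of 15 keratins, 7 of 29 keratoderma genes, 10 of 31 activation genes, 4 of 18 Nfe2l2 targets, 5 of 23 regulators and 4 of 23 filament partners, where 10.4% of all genes did. Over all male keratinocytes it was 7 of 17, 6 of 30, 9 of 34, 5 of 18, 2 of 23 and 3 of 24, where 9.15% of all genes did. Of the 3 genes that passed in male suprabasal cells, 1 was the terminal marker Ivl. It rose by 0.61 on the log2 scale (edgeR adjusted p = 0.044), and 0 genes passed there without male RD 1. In male suprabasal cells the summed terminal markers ranged from 2844 to 4781 CPM in RD and from 4849 to 6916 in HFD mice, without overlap, against 1180 to 2096 and 1076 to 1802 CPM in females. They are given beside the Krt17 values of male suprabasal cells, and their part in them was not tested.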

How the data were processed

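Epidermis of glabrous hind paw had been separated with dispase, dissociated and profiled with 10x 3′ v3.1 chemistry, 1 library per mouse in 12 mice. The authors deposited filtered matrices of UMI counts per gene and cell, counted with Cell Ranger against mm10 (GRCm38). The headers of the male files named version 6.1.0 and those of the female files 7.2.0, whereas the submitters' processing notes named 7.2.0 and Seurat 5.0.0. Whether intronic reads were counted is not given in the sources used here.

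From the deposited UMI counts, cells were kept with 200 (males) or 500 (females) to 6000 detected genes and with no more than 5% of their UMIs from mitochondrial genes. Cells with at least 1000 UMIs were gated per 10000 UMIs and with at least 3 UMIs of the gate genes, in this order: immune genes at 5 (left out), Lce1 family at 20 (terminal), cycling genes at 10, Krt79 at 5, then Krt14 and Krt10 at 50. All keratinocytes are the cells outside the immune gate, unstaged included. Doublets were not removed in the main analysis, and removing the cells of highest simulated-doublet score (0.8% per 1000 cells) was an alternative. For shares of cells with a UMI and for rich cells, each cell was thinned to 3000 UMIs, which left 58140 of 59868 male and 59354 of 61444 female keratinocytes.

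UMIs were summed per mouse and stage. Diet was tested within each sex with edgeR 4.0.16 (quasi-likelihood, TMM, filterByExpr, Benjamini-Hochberg over all genes tested, threshold 0.05), and the difference between the sexes as an interaction over all 12 mice, in R 4.3.3. The SE of a diet difference is its absolute log2 value divided by the square root of the quasi-likelihood F, since edgeR gives no SE. DESeq2 1.42.0 was an alternative. Stage steps and Krt9 classes were tested by two-sided exact sign-flip permutation over mice on log2(CPM + 1), adjusted over 25 and 4 tests. Numbers come from Python 3.11.15 with numpy 2.4.6, scipy 1.17.1, pandas 2.3.3, Biopython 1.88 and matplotlib 3.10.9. The scripts were tested on simulated data. The labels do not say that mice of a group were pooled, and p-values measure the spread between these mice. Alternatives were another mitochondrial limit (10%), gate levels doubled or halved, doublet removal, RLE size factors, no count filter, a replicate block, a pseudocount of 10, thinning, at least 30 in place of 10 Krt9 UMIs, and leaving out each mouse. Removing the cell of most UMIs of each member was added after seeing the data. So were the test of steps between sexes and the counts of rich cells in all stages.

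The members and lists were chosen with earlier results of these data known. Genes named are the 5 members, the 3 genes per member most correlated over stages (1 of those for Krt9 is not reported here), and the 3 genes per list and comparison past the threshold with the largest change. Krt1, Krt2, Krt5, Krt10, Krt14, Krt15, Krt8, Krt18, Sox9, Cst6 and Krt79 in rich cells were named after their values were seen.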

Additional observations from a re-analysis of the deposited data

Results flagged for a closer look

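The step of Krt16 from intermediate to suprabasal cells differed between the sexes by 0.75 on the log2(CPM + 1) scale (males minus females), with 0.40 ± 0.11 in males and -0.35 ± 0.40 in females (SD, n = 6 each, exact permutation p = 0.0022, adjusted p = 0.027 over 25 steps). The step of Krt17 from basal to Krt79 cells differed by -1.33, with 3.11 ± 0.49 in males and 4.44 ± 0.32 in females (exact permutation p = 0.0022, adjusted p = 0.027). Sex and the version of the counting software cannot be told apart, and intermediate cells were 6.74% and 6.04% of male but 2.65% and 3.13% of female RD and HFD keratinocytes. No other of the 25 steps passed that test.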

How the results depend on the processing

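The number of members past the threshold was 0 in 20 of the 21 diet comparisons and 1 in female suprabasal cells. It became 0 in female suprabasal cells with gate levels doubled or halved, doublets removed, top cells removed (added after seeing the data) or a replicate block, and leaving out 1 mouse gave 0 to 1. Krt6b there was -1.26, -1.11 and -1.23 with gates doubled, doublets removed and the block (edgeR adjusted p = 0.057, 0.067 and 0.060), near the reported -1.15, but -0.12 with gates halved and -0.45 without top cells. With no filter on low counts it became 1 in male basal cells and 4 in male Krt79 cells, 1 in female all, cycling and basal keratinocytes, 2 in intermediate and 4 in Krt79 cells, and for the diet by sex term 1 in all, cycling, basal, intermediate and suprabasal cells and 2 in Krt79 cells. Without that filter all genes called also rose, from 1 to 203 in male basal and 3 to 176 in male Krt79 cells, and in females from 603 to 646 in all, 211 to 691 in cycling, 114 to 395 in basal, 6 to 289 in intermediate and 0 to 152 in Krt79 cells. For diet by sex they became 385, 187, 162, 111, 646 and 156 in all, cycling, basal, intermediate, suprabasal and Krt79 cells. With DESeq2 it was 1 in male and in female Krt79 cells and in suprabasal cells for diet by sex, of 14, 5 and 772 genes called, and with gate levels doubled 1 in intermediate cells for diet by sex, the 1 gene called. Leaving out 1 mouse also gave 0 to 1 in male Krt79 cells (1 of 4 genes called without male HFD 2), female cycling cells (1 of 22 without female HFD 3), female terminal cells (1 of 2 without female RD 1) and suprabasal cells for diet by sex (1 of 943 without male RD 2 and 1 of 311 without female HFD 1).

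The labels do not say whether same-numbered mice were paired, and the main diet tests did not pair them. The deviations of same-numbered mice from the group means had correlations of 0.047, 0.10 and 0.14 in males and -0.098, -0.11 and 0.045 in females. In males, not in females, each sample correlated best with its own number. With the number as a replicate block, members past the threshold were 1 in male Krt79 cells (Krt17), 0 in female suprabasal cells and 1 for diet by sex in all keratinocytes, of 9, 172 and 177 genes called (0.103% of genes tested in male Krt79 cells and 0.981% for diet by sex), and the 603 and 542 genes called over all female keratinocytes and in female suprabasal cells became 6 and 172. With DESeq2 they were 1538 and 1011.

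Values whose sign changed were near 0 in most cases. Under the block, Krt16 over all male keratinocytes was 0.0017 and Krt6a in suprabasal cells for diet by sex 0.018. Krt6a in male suprabasal cells was -0.017 with the 10% mitochondrial limit, -0.011 and -0.054 with gate levels doubled and halved, and -0.087 without top cells. Krt17 in female suprabasal cells was -0.11 with gate levels halved and -0.051 without doublets, and Krt16 in Krt79 cells for diet by sex -0.24 without doublets. Among steps, Krt9 basal to intermediate was -0.052 with gates doubled, Krt6b intermediate to suprabasal -0.41 and Krt17 suprabasal to terminal 0.57 with gates halved, and Krt16 intermediate to suprabasal -0.18 without doublets and -0.015 thinned. Krt6a between the Krt9 classes was -0.20 at 30 UMIs. The cause was not tested. Leaving out 1 mouse gave, over all keratinocytes of males, -0.0074 to 0.71 for Krt9, -0.15 to 0.078 for Krt6a and -0.26 to 0.11 for Krt16, and of females -0.34 to 0.089 for Krt6a and -0.18 to 0.069 for Krt17. In male suprabasal cells it gave -0.010 to 0.62 for Krt9, -0.28 to 0.20 for Krt6a and -0.31 to 0.12 for Krt16, and in female ones -0.31 to 0.38 for Krt6a, -0.038 to 0.42 for Krt16 and -0.080 to 0.12 for Krt17. For diet by sex it gave -0.11 to 0.31 for Krt6a over all keratinocytes, -0.43 to 0.31 in suprabasal cells, and -1.07 to 0.71 for Krt6b and -0.18 to 0.32 for Krt16 in Krt79 cells. For the step of Krt16 from intermediate to suprabasal cells it gave -0.028 to 0.10, and for the Krt9 classes -0.16 to 0.59 for Krt6b and -0.016 to 0.19 for Krt16. Under the settings that kept all mice, 529 single values kept their direction and side of the threshold, 23 passed it where the main value had not, and 12 no longer passed.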
